A study of Homo sapiens with 51 samples.

Results

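Axon guidance ligands and receptors are the secreted and membrane-bound cues that steer growing nerve fibres, together with the receptors that read them. The set held every RefSeq protein-coding gene with a symbol of the semaphorin classes 3 to 7, the plexins, the EPHA and EPHB receptors, the ephrins, or the ROBO, SLIT, netrin and UNC5 families. That gave 66 of 19974 protein-coding genes, with 20 semaphorins, 9 plexins, 9 EPHA and 5 EPHB receptors, 5 ephrin-A and 3 ephrin-B ligands, 4 ROBO receptors, 3 SLIT ligands, 4 netrins and 4 UNC5 receptors. Accessible chromatin had been counted by ATAC-seq, in which a transposase cuts open DNA, in regions of 201 bp, and a region was linked to a gene where the nearest protein-coding gene end lay within 50 kb and belonged to it. This linked 535 of the 100584 regions counted at day 0, 778 of 142087 in the BMP4 table and 812 of 162317 in the SMADi table. ROBO1 had no linked region at day 0, and the other 65 members at day 0 and all 66 members in both later tables passed the filter on low counts.

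The cell line was H1, an established line of human embryonic stem cells, in the genotypes KO, DATG (ΔATG) and WT. Undifferentiated cells were taken at day 0 with 2 libraries per genotype, and cells under BMP4, a growth factor used to induce mesoderm, on days 1, 2, 3, 4 and 5 with 2 libraries per genotype and day. Cells under SMADi, a neural induction treatment, were taken on days 1, 4 and 5, with 1 library each for KO day 4, DATG day 1 and DATG day 5 and 2 libraries for every other group. Neither the edited gene nor the number of clones per line is stated in the labels, so the edit could not be checked. Nothing says that replicates came from separate cultures, and the spread behind each p-value is that between libraries, which may be technical.

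Semaphorins are read by plexins, often with neuropilins as co-receptors. Ephrins on a cell's surface are read by EPH receptor kinases on its neighbours, and the signal runs into both cells. SLITs act through ROBO receptors, mostly as repellents, and netrins through DCC or the UNC5 receptors. Outside the nervous system the same families separate tissues and shape vessels and the heart. Ephrin-B2 and its receptor EPHB4 mark arteries and veins.

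Promoter windows from RefSeq (GRCh38.p14, 250 bases before to 50 after a gene's start) were matched by symbol for 57 of the 66 members, with 89 windows. The windows below belong to members whose promoter region passed a test described further on. PLXNA1 had the only promoter region among the strongest regions of a comparison, and the other 4 were chosen after their values were seen. Each is written 5′ to 3′ on the gene's strand, with capitals for bases that lie inside a counted region of the BMP4 table. PLXNA1 and PLXNA2 encode semaphorin receptors, EPHA2 an ephrin-A receptor, EFNB2 the ligand ephrin-B2 and SLIT1 a secreted repellent.
PLXNA1: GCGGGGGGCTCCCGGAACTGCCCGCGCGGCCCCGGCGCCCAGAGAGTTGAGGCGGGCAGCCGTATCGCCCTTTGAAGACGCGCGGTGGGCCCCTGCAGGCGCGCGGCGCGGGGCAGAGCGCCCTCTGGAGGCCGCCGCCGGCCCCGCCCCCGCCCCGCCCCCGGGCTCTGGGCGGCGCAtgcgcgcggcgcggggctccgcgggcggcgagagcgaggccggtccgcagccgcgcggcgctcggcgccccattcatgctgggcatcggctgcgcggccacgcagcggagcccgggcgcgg
PLXNA2: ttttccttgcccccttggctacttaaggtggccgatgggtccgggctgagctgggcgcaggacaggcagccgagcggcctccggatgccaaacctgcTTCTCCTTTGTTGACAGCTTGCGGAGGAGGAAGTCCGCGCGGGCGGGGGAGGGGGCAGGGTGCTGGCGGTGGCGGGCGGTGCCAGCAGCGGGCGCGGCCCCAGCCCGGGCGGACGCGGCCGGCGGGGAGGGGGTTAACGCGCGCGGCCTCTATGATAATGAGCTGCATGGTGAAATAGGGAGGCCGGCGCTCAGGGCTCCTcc
EPHA2: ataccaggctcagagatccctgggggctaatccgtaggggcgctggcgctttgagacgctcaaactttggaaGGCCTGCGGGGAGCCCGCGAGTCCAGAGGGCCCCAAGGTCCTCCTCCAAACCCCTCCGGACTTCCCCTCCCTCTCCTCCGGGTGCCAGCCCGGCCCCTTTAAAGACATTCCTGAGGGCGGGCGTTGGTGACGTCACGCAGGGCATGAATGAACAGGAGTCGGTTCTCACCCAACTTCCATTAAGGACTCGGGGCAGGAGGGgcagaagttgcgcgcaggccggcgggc
EFNB2: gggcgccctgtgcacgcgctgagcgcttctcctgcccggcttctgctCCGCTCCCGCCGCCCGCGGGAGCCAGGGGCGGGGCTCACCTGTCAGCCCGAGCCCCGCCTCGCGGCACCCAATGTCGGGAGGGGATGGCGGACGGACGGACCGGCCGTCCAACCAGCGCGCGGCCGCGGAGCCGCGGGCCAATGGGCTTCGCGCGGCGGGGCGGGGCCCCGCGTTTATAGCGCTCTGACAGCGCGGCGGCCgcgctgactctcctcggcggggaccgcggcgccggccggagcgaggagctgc
SLIT1: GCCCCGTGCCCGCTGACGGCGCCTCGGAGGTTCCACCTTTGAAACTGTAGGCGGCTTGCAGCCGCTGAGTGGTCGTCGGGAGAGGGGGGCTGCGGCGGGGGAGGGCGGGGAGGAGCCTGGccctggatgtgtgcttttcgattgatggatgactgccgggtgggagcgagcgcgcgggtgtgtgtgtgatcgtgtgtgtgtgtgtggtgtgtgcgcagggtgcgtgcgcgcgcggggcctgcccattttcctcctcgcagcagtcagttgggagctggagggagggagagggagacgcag
They lie at chr3:126982865-126983164 (plus strand) for PLXNA1, chr1:208244335-208244634 (minus strand) for PLXNA2, chr1:16156020-16156319 (minus strand) for EPHA2, chr13:106535613-106535912 (minus strand) for EFNB2 and chr10:97185910-97186209 (minus strand) for SLIT1. Their GC content was 83.0% for PLXNA1, 70.3% for PLXNA2, 64.3% for EPHA2, 78.7% for EFNB2 and 68.0% for SLIT1. Over all member windows the median GC content was 65.7%, beside 62.3% over all 22156 RefSeq windows, and the median window held 21 CG dinucleotides in both sets.

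Levels are library-scaled counts (CPM), normalised by the trimmed mean of M values, and the level of a gene is the sum over its linked regions. Total counts per library lay between 4616521 and 7516259 at day 0, between 4019778 and 13850448 with BMP4 and between 7086918 and 23252871 with SMADi, and the members took 0.461% to 0.517% of them. The 10 pluripotency genes checked all had linked counts at day 0, with sums of 997 and 989.8 CPM in KO, 1019 and 945 CPM in DATG and 1004 and 992 CPM in WT. One SMADi library, labelled KO day 1 replicate b, stood apart: its 135 regions overlapping those that separated KO from DATG under BMP4 (over 1 on the log2 scale) lay on average 1.02 of the way from the other KO day 1 library to DATG day 1. KO values under SMADi include it unless stated otherwise, and the numbers of KO calls against WT are also given without it. Changes are log2 fold changes with a standard error (SE) from edgeR's quasi-likelihood test, called at a Benjamini-Hochberg adjusted p under 0.05 over all genes or all regions of the table. "Rose", "fell", "higher" and "lower" are used of such calls. Some counts of members are at an unadjusted p under 0.05, in an alternative fit or with a library left out. The share of all genes or regions at those settings is not printed, so such counts are not read against the background. In bulk libraries, fewer cells with an open region and less opening per cell cannot be told apart.

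Members carried from 1 to 47 regions under BMP4, so their sums are not levels of like quantities. EPHB3, a receptor for B-class ephrins, had the highest sum in every table, averaging 303 CPM over 26 regions at day 0, 378 CPM over 47 regions under BMP4 and 366 CPM over 44 regions under SMADi. ROBO4, a ROBO receptor of endothelial cells, had 1 region and the lowest sum under BMP4 (6.14 CPM) and SMADi (4.46 CPM). At day 0 the lowest was SEMA3D, a secreted semaphorin, at 7.24 CPM in its single region. Per region of equal length the order was different. SEMA4F led at day 0 with 21.2 CPM per region, EPHA3 under BMP4 with 21.6 and EPHB4 under SMADi with 14.8, while ROBO1 came last in both treated tables (3.79 CPM per region under BMP4 and 3.19 under SMADi). A member sum rested on a median of 10 regions and 462 counts per library under BMP4, against 5 regions and 288 counts for all genes with a linked region. The members' sums thus rest on more counts than those of the typical gene, and the share of single regions called is given beside the share of genes.

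At day 0 no member gene was called in KO or DATG against WT, where 0.139% and 0.18% of all 17264 genes were. At an unadjusted p under 0.05 edgeR passed 2 members in KO and 4 in DATG, and DESeq2 called 0 and 0. EFNB2 had 99.1 and 110.1 CPM in KO, 103 and 90.5 CPM in DATG and 96.2 and 97.0 CPM in WT, so both KO libraries lay above WT and the DATG libraries on either side of it, with no call. EPHB3 had 286 and 297 CPM in KO, 332 and 293 CPM in DATG and 303 and 305 CPM in WT, with both KO libraries below WT and DATG again on either side. Of single regions none was called in KO, beside 0.0855% of all regions, and 1 was called in DATG, among 0.206% of all regions. It lies inside UNC5B, a netrin receptor of vessels and neurons, at chromosome 10, 71266451 to 71266651, and had 12.0 and 13.0 CPM in DATG against 3.71 and 9.34 CPM in WT, with 8.1 and 4.13 CPM in KO. Its change was 1.01 ± 0.24 (SE, adjusted p = 0.0433), and it was not called with DESeq2, with scaling by total counts (adjusted p = 0.0706) or with the replicate letter as a block (adjusted p = 0.0883). It was also lost without WT replicate a, DATG replicate a or DATG replicate b (adjusted p = 0.0726 to 0.741).

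**Figure D1:**
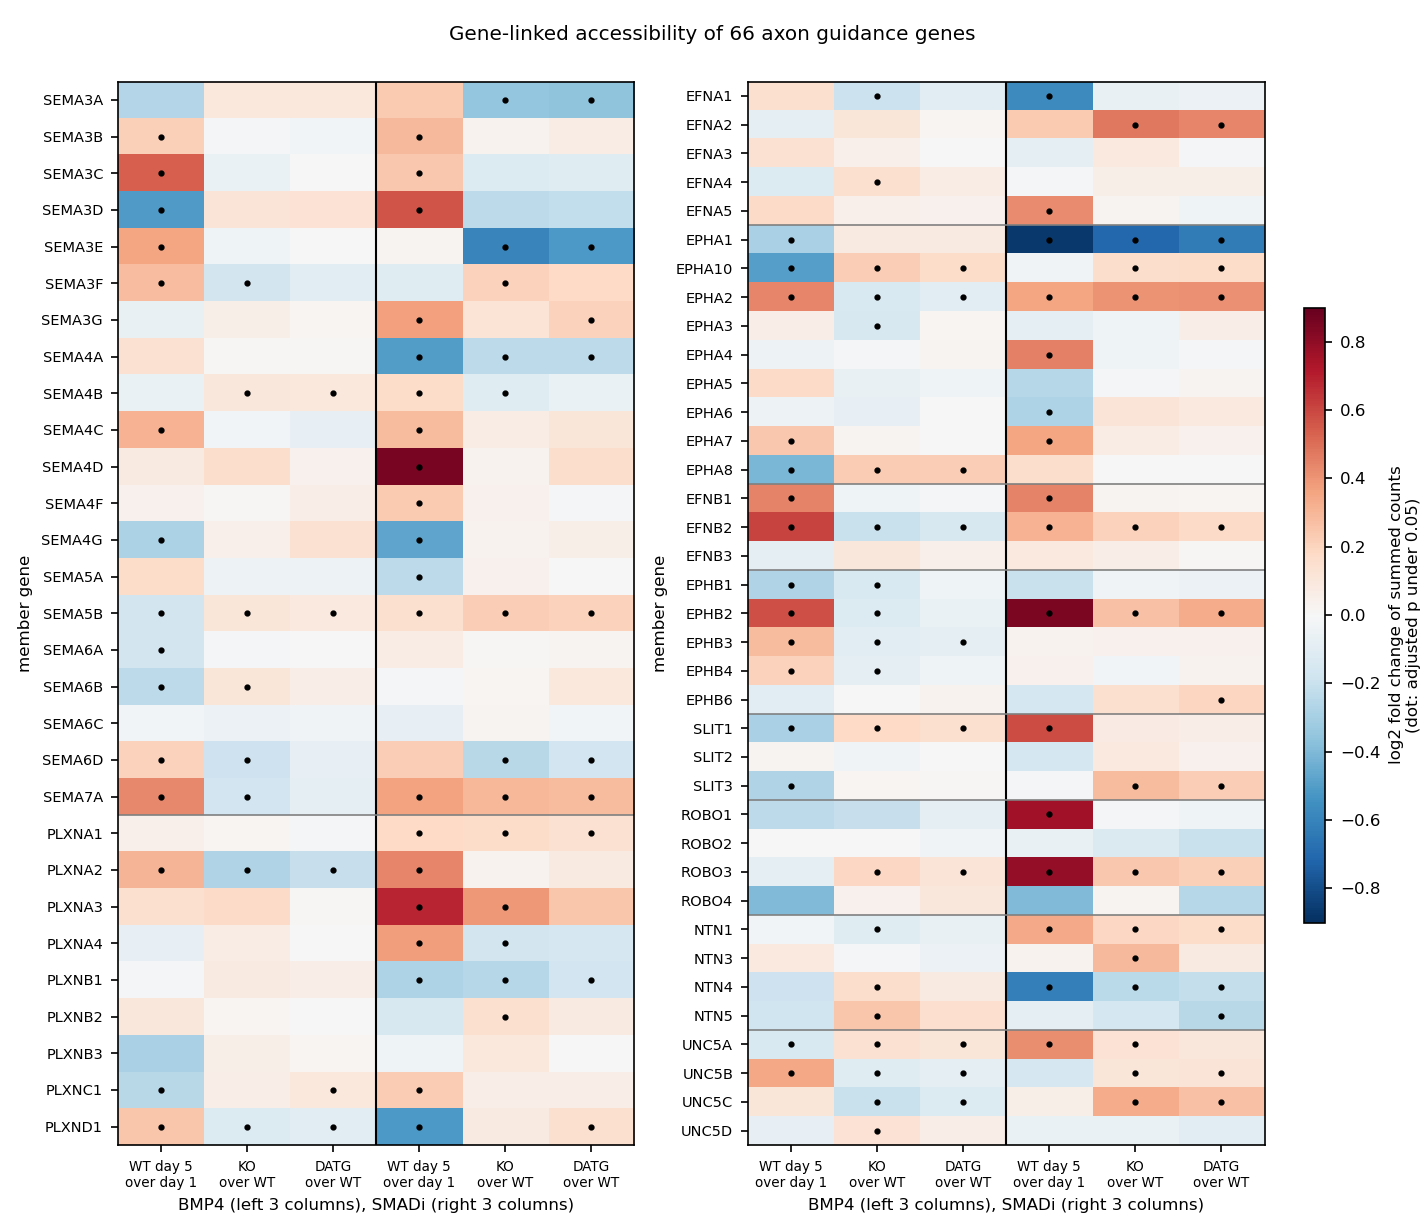
Log2 fold change of gene-linked counts for each of the 66 members (rows, grouped by family) in 6 comparisons (columns), 3 under BMP4 left of the black line and 3 under SMADi right of it, with a dot where the adjusted p was under 0.05. EFNB2 and EPHB2 are red for WT day 5 over day 1 under both treatments, and the mutant columns for EFNB2, EPHA2 and UNC5B are blue under BMP4 and red under SMADi.

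Under BMP4, WT cells gained accessibility around the ephrins EFNB1 and EFNB2 and 3 of the 5 EPHB receptors, and lost it around EPHA10, EPHA8 and SLIT1. Of the 66 members, 17 were higher and 13 lower on day 5 than on day 1, beside 47.3% of all 17710 genes called (24.8% higher and 22.5% lower). The members' share, 45.5%, was near that background, and their median change was −0.01, beside 0.00 for all genes. Ligands passed in 9 cases upward and 7 downward of 35, and receptors in 8 upward and 6 downward of 31.

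Among the ligands, EFNB2 in WT had 111 and 104 CPM on day 1, 129.7 and 132 on day 2, 147 and 136 on day 3, 149 and 134 on day 4 and 162 and 166 on day 5. No library of days 2 to 5 fell within the range of day 1, and the change from day 1 to day 5 was 0.61 ± 0.06 (SE, adjusted p = 4.90e-11). EFNB1, its close relative, had 75.9 and 77.4 CPM on day 5 against 52.4 and 60.6 on day 1 and rose by 0.45 ± 0.09 (SE, adjusted p = 7.85e-05). SEMA3C, a secreted semaphorin needed for the cardiac outflow tract in mice, had 77.5 and 80.7 CPM on day 5 against 53.8 and 55.7 on day 1. It rose by 0.54 ± 0.08 (SE, adjusted p = 3.36e-07), and the day 2 libraries already stood at 68.2 and 73.1 CPM. SEMA7A, a membrane-anchored semaphorin, rose by 0.43 ± 0.09 (SE, adjusted p = 4.71e-05), and SEMA3E, the ligand of plexin-D1 in vessel patterning, by 0.36 ± 0.07 (SE, adjusted p = 7.77e-05). SEMA3D ran the other way, with 6.21 and 7.5 CPM on day 5 against 9.13 and 10.7 on day 1. Its fall of 0.51 ± 0.20 (SE, adjusted p = 0.0344) rested on 2 regions. It was lost without WT day 1 replicate b, WT day 5 replicate a or WT day 5 replicate b (adjusted p = 0.0561 to 0.191) and with DESeq2 (adjusted p = 0.125). SLIT1 fell by 0.29 ± 0.07 (SE, adjusted p = 0.000496), with 102 and 87.3 CPM on day 5 against 117 and 113 on day 1, and SLIT3 by 0.27 ± 0.08 (SE, adjusted p = 0.00453). SEMA4G fell by 0.28 ± 0.11 (SE, adjusted p = 0.0351), a call that DESeq2 did not make and that was lost without any of the 4 WT libraries of days 1 and 5 (adjusted p = 0.0683 to 0.126). SLIT1 lost its call without WT day 5 replicate b (adjusted p = 0.107), and SLIT3 without it or WT day 1 replicate b (adjusted p = 0.0865 to 0.0886). No netrin and no ephrin-A was called.

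Among the receptors, EPHB2, which binds B-class ephrins, had 82.5 and 77.7 CPM on day 1, 86.9 and 88.0 on day 2, 114 and 101 on day 3, 116 and 115 on day 4 and 117 and 123 on day 5 in WT. Days 3 to 5 lay above days 1 and 2, and the change from day 1 to day 5 was 0.58 ± 0.07 (SE, adjusted p = 4.47e-09). EPHB3 and EPHB4 rose by 0.29 ± 0.05 and 0.21 ± 0.06, whereas EPHB1 fell by 0.27 ± 0.07 (SE, adjusted p = 0.000562). EPHA2, an ephrin-A receptor of epithelia and the early embryo, had 239 and 259 CPM on day 5 against 181 and 187 on day 1 and rose by 0.44 ± 0.05 (SE, adjusted p = 1.42e-09). UNC5B had 277 and 276 CPM on day 5 against 218 and 217 on day 1, a rise of 0.35 ± 0.05 (SE, adjusted p = 1.27e-07). EPHA10, an EPH receptor without kinase activity, had 54.1 and 54.6 CPM on day 5 against 73.8 and 79.9 on day 1. It fell by 0.50 ± 0.08 (SE, adjusted p = 2.88e-06). EPHA8 fell by 0.41 ± 0.08 (SE, adjusted p = 3.29e-05) and EPHA1 by 0.29 ± 0.10 (SE, adjusted p = 0.0103), the last call being lost without WT day 1 replicate b or WT day 5 replicate b (adjusted p = 0.0674 to 0.183). None of the 4 ROBO receptors passed. Without WT day 5 replicate b, 19 members and 151 member regions were called. With regions within 1 kb of a gene end alone, and the scaling computed anew from their counts, 18 members were called (5 higher and 13 lower). The share of all genes called in that fit is not printed here. EPHA8, EPHB1 and SLIT3 then no longer had a negative change. With the scaling over all regions, 33 of the 200 member regions within 1 kb were higher and 18 lower. Of all regions within 1 kb, 22.2% were higher and 7.66% lower. The 1 kb split of members is therefore not read as a fall near gene ends.

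Single regions showed larger changes than the sums. Of 778 member regions, 167 were higher and 85 lower on WT day 5 than on day 1, beside 34.9% of all regions (20.3% higher and 14.7% lower), and the members' 32.4% was near it. Scaling by total counts, which moved the median change of all regions to −0.17 from −0.03, gave 132 higher and 140 lower. The largest rise among regions at or above the median coverage lay inside UNC5B, at chromosome 10, 71235045 to 71235245 and 22475 bp from a gene end. It had 13.9 and 14.9 CPM on day 5 against 0.97 and 1.29 on day 1 in WT, a change of 3.68 ± 0.27 (SE, adjusted p = 4.55e-22). In EPHB2, 9 of 18 regions rose and 2 fell. A group of 3 of them inside the gene, 30394, 34930 and 39575 bp from its start, rose by 3.02 ± 0.26, 3.93 ± 0.39 and 4.28 ± 0.33 (SE). In EFNB2, 7 of 15 regions rose and 2 fell. The 3 regions beyond the end of the gene, 20308, 17318 and 14610 bp from it, rose by 3.62 ± 0.29, 1.88 ± 0.16 and 2.39 ± 0.37, and the promoter region shown above by 0.48 ± 0.13. EPHB3 had 16 rising and no falling region of 47, led by 2.47 ± 0.25 at chromosome 3, 184570616 to 184570816. The strongest falls were −1.32 ± 0.24 inside UNC5A, −1.22 ± 0.21 beside SEMA6A and −1.13 ± 0.19 inside EPHB1. These regions within EPHB2 and EFNB2 were picked out after their values were seen.

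**Figure D2:**
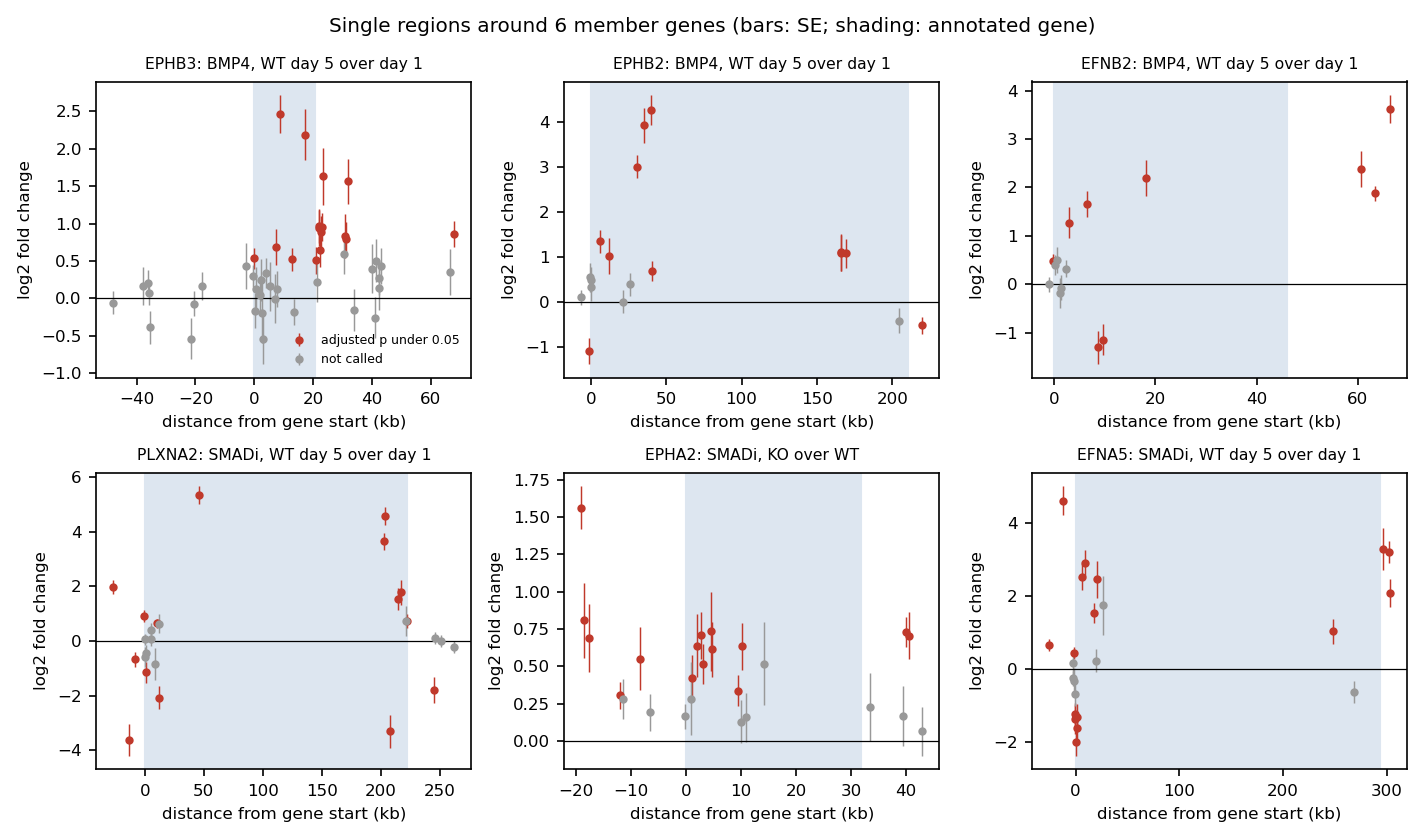
Log2 fold change of every counted region linked to 6 members (points, with SE bars) against its distance from the gene start in kb, with the annotated gene shaded and red points for an adjusted p under 0.05. Around EPHB2 the strongest rises under BMP4 lie between 30 and 40 kb inside the gene, and all 25 EPHA2 regions lie above 0 for KO over WT under SMADi.

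In KO cells under BMP4, less accessibility than in WT was counted around PLXNA2, UNC5C and EFNB2 and more around NTN5, EPHA8 and EPHA10. Averaged over the 5 days of BMP4, 12 members were higher and 16 lower in KO than in WT, or 42.4%, beside 22.6% of all genes (11.4% higher and 11.2% lower). Of single member regions 25.2% were called (81 higher and 115 lower), beside 21.5% of all regions (9.1% higher and 12.4% lower), so the members lie closer to the background there. In DATG, 8 members were higher and 7 lower, 22.7% beside 10.4% of all genes (5.35% higher and 5.05% lower). At single regions 30 were higher and 56 lower in DATG, 11.1% beside 9.32% of all regions (4.12% higher and 5.21% lower). Both comparisons use the same WT libraries, so the mutant lines are set side by side. The strongest change of a sum was a fall of 0.27 ± 0.03, for PLXNA2 in KO.

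Lower in both mutant lines were PLXNA2, EFNB2, UNC5C, UNC5B, EPHA2, EPHB3 and PLXND1. PLXNA2, a receptor for class 3 and class 6 semaphorins, ranged from 141 to 159.7 (median 148) CPM in the 10 KO libraries, from 136 to 175 (median 155) CPM in the 10 DATG libraries and from 148 to 219 (median 178) CPM in the 10 WT libraries. On day 3 the KO libraries had 148 and 148 CPM, the DATG libraries 157 and 162 and the WT libraries 219 and 202, with no overlap between WT and either line. The change was −0.27 ± 0.03 (SE, adjusted p = 3.51e-10) in KO and −0.21 ± 0.03 (SE, adjusted p = 1.62e-06) in DATG. EFNB2 had 123 and 128 CPM in KO, 130.0 and 125 in DATG and 162 and 166 in WT on day 5. On day 1 it had 113 and 108 CPM in KO, 100.5 and 112 in DATG and 111 and 104 in WT, so the lines overlapped then and WT lay above both on day 5. Its change was −0.20 ± 0.03 (SE, adjusted p = 9.95e-07) in KO and −0.14 ± 0.03 (SE, adjusted p = 0.000957) in DATG. UNC5C, a netrin receptor, fell by 0.20 ± 0.04 in KO and by 0.13 ± 0.04 in DATG, and the DATG call was lost with DESeq2, with total-count scaling and without any 1 of 22 of the 30 libraries (adjusted p = 0.0511 to 0.203). EPHA2 lay below the WT mean of its day in all 10 KO and all 10 DATG libraries, at changes of −0.14 ± 0.02 in KO and −0.10 ± 0.02 in DATG. With regions within 1 kb alone the EPHA2 change in DATG turned to 0.0287 (adjusted p = 0.873). In KO the ligands EFNA1 (−0.20 ± 0.04), SEMA6D (−0.19 ± 0.04), SEMA7A (−0.17 ± 0.04) and SEMA3F (−0.17 ± 0.05) and the receptor EPHA3 (−0.15 ± 0.05) were lower too. None of these 5 was called in DATG, and EPHA3 lost its call with DESeq2 and without any 1 of 8 libraries (adjusted p = 0.0544 to 0.132).

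Higher in both lines were EPHA8, EPHA10, SLIT1, ROBO3, UNC5A, SEMA4B and SEMA5B. EPHA8 ranged from 74.2 to 88.5 (median 81.5) CPM in KO, from 74.5 to 84.2 (median 80.5) CPM in DATG and from 56.5 to 84.0 (median 71.2) CPM in WT, so the ranges over all days overlapped. On day 5 it had 88.5 and 81.9 CPM in KO and 81.3 and 74.5 in DATG against 60.3 and 56.5 in WT, with WT the lowest, and its change over the days was 0.23 ± 0.04 (SE, adjusted p = 2.43e-06) in KO and 0.22 ± 0.04 (SE, adjusted p = 2.01e-05) in DATG. SLIT1 had 134 and 119 CPM in KO and 116 and 127 in DATG against 102 and 87.3 in WT on day 5, and changes of 0.18 ± 0.03 in KO and 0.15 ± 0.03 in DATG. EPHA10 changed by 0.22 ± 0.04 in KO and 0.17 ± 0.04 in DATG, and ROBO3, which lets commissural axons cross the midline, by 0.19 ± 0.04 and 0.12 ± 0.04. NTN5, a netrin, was higher in KO by 0.25 ± 0.05 (SE, adjusted p = 0.000337), with all 10 KO libraries above the WT mean of their day, and stood at 0.15 ± 0.05 in DATG, which was not called. In DATG the calls of ROBO3, SEMA4B, SEMA5B, PLXNC1 and UNC5B were lost with DESeq2 and without any 1 of 13, 10, 7, 7 and 2 libraries, the highest adjusted p being 0.142. DESeq2 called 9 members there, and with regions within 1 kb 1 was left. KO under the 1 kb limit had 10, and PLXNA2 then stood at 0.00 in KO and 0.01 in DATG.

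**Figure D3:**
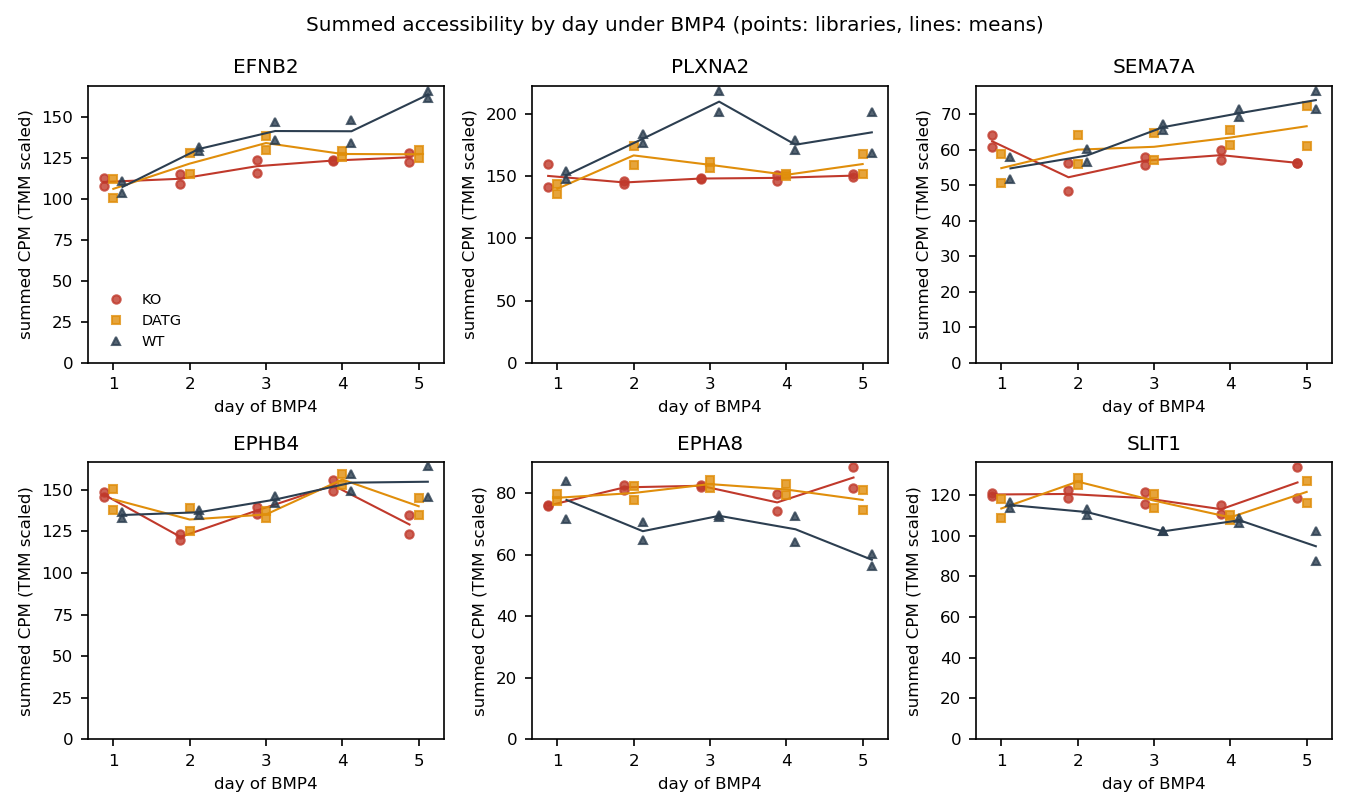
Summed CPM by day of BMP4 for 6 members called for a different day 5 against day 1 change in KO than in WT, with points for libraries and lines for means, KO in red circles, DATG in orange squares and WT in dark triangles. The 2 WT libraries of day 5 lie above the KO libraries for EFNB2, PLXNA2, SEMA7A and EPHB4 and below them for EPHA8 and SLIT1.

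The difference in course was tested directly, as the day 5 against day 1 change in KO minus that in WT. It was called for 7 members, 2 upward and 5 downward, beside 5.61% of all genes (2.73% upward and 2.88% downward). Total-count scaling gave 4 upward and 5 downward. SEMA7A had 56.3 and 56.4 CPM on day 5 against 64.1 and 60.8 on day 1 in KO, and 71.5 and 76.6 against 57.9 and 51.7 in WT. The difference was −0.58 ± 0.13 (SE, adjusted p = 0.0033), and the lines changed places between the days. EPHA8 had 88.5 and 81.9 CPM on day 5 against 76.2 and 75.8 on day 1 in KO, and 60.3 and 56.5 against 71.7 and 84.0 in WT, a difference of 0.58 ± 0.11 (SE, adjusted p = 0.00112). EFNB2 differed by −0.42 ± 0.10 (SE, adjusted p = 0.004), with a rise of 0.18 ± 0.07 from day 1 to day 5 in KO and of 0.61 ± 0.06 in WT. EPHB4, the venous receptor of ephrin-B2, differed by −0.39 ± 0.09 (SE, adjusted p = 0.00534), with a fall of 0.19 ± 0.07 in KO beside the rise in WT. SEMA3F (−0.51 ± 0.15), SLIT1 (0.36 ± 0.10) and PLXNA2 (−0.30 ± 0.09) each lost the call with DESeq2, and without any 1 of 5, 5 and 10 libraries. These included WT day 1 replicate a, WT day 5 replicate b and KO day 5 replicate a, and the highest adjusted p was 0.475. EPHB4 lost its call without either of the last 2 of these (adjusted p = 0.0544 to 0.123). For DATG none of the members was called by edgeR, beside 0.378% of all genes, with 7 members at an unadjusted p under 0.05 and 0 called by DESeq2. Within KO alone, 16 members rose and 1 fell from day 1 to day 5, beside 27.4% of all genes called either way. Within DATG 14 rose and 7 fell, beside 30.3% either way. The split of all genes by direction is not printed here for these 2 comparisons, so no skew of the members is read from them. Of single member regions, 93 were higher and 43 lower on day 5 within KO, beside 11.2% and 8.32% of all regions, and 115 were higher and 53 lower within DATG, beside 12.9% and 8.27%.

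The difference in course was called for 12 member regions in KO, 3 upward and 9 downward, 1.54% beside 2.09% of all regions (0.766% upward and 1.33% downward). Total-count scaling gave 9 upward and 8 downward, and DESeq2 none. A region 21977 bp outside ROBO3 differed by 1.56 ± 0.31 (SE, adjusted p = 0.00289) in KO and by 1.62 ± 0.32 (SE, adjusted p = 0.0168) in DATG, where it was the only member region called, beside 0.076% of all regions. It had 18.7 and 12.4 CPM in KO and 13.0 and 14.2 in DATG against 5.06 and 5.82 in WT on day 5. On day 1 it had 5.03 and 4.78 CPM in KO, 3.56 and 4.5 in DATG and 5.02 and 5.17 in WT. The call was lost without KO day 5 replicate a in KO (adjusted p = 0.0642) and without any 1 of 4 libraries in DATG (adjusted p = 0.0535 to 0.116).

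Averaged over the days, single regions showed larger differences than the sums. The region with the strongest fall in both mutant lines, among those at or above the median coverage, lies 119 bp beyond an annotated end of EPHB4, at chromosome 7, 100802246 to 100802446. In WT it had 2.03 and 3.66 CPM on day 1, 3.42 and 3.8 on day 2, 8.17 and 5.68 on day 3, 12.2 and 11.7 on day 4 and 14.1 and 15.4 on day 5. On day 5 the KO libraries had 4.46 and 4.4 CPM and the DATG libraries 8.2 and 4.72, both below WT. The change over the days was −0.99 ± 0.13 (SE, adjusted p = 1.89e-09) in KO and −0.89 ± 0.13 (SE, adjusted p = 2.86e-07) in DATG. The UNC5B region that opened in WT had 4.72 and 5.44 CPM in KO and 7.5 and 6.46 in DATG against 13.9 and 14.9 in WT on day 5. It was lower by 0.92 ± 0.15 in KO and by 0.52 ± 0.14 in DATG. The 3 EPHB2 regions named for WT were lower in KO by 0.68 ± 0.13, 1.07 ± 0.22 and 1.33 ± 0.23. The 3 EFNB2 regions beyond the gene's end were lower by 1.35 ± 0.17, 0.35 ± 0.08 and 1.22 ± 0.21. The UNC5B, EPHB2 and EFNB2 regions had been named for their rise in WT. Their comparison with KO uses the same WT libraries, so that choice favours lower values in KO. A region 26342 bp outside PLXNA2 changed by −0.76 ± 0.11 (SE, adjusted p = 1.18e-08) in KO, and 14 of 28 PLXNA2 regions were lower with 0 higher. Higher in both lines was a region inside SEMA3C, with 15.3 and 13.6 CPM in KO and 12.6 and 11.9 in DATG against 7.66 and 5.48 in WT on day 5. Its change was 0.54 ± 0.09 in KO and 0.56 ± 0.09 in DATG, although the SEMA3C sum was not called in either. A region inside EPHA4 changed by 0.61 ± 0.13 in KO and 0.54 ± 0.13 in DATG, and the EPHB3 region that opened most in WT stood 0.51 ± 0.11 higher in DATG.

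The 2 mutant lines differed from each other in 14 member regions under BMP4, 4 higher and 10 lower in KO, 1.8% beside 1.84% of all regions (0.519% and 1.32%). No member gene was called by edgeR, beside 1.99% of all genes, with 9 members at an unadjusted p under 0.05 and 0 called by DESeq2. The share of all genes at that unadjusted threshold is not printed here, so the 9 are not read as a signal of the members. The PLXNA1 promoter region, at chromosome 3, 126982843 to 126983043, had 9.05 and 16.2 CPM in KO against 7.64 and 4.97 in DATG on day 5, with 10.7 and 12.9 in WT. Its change was 0.36 ± 0.09 (SE, adjusted p = 0.0208) for KO over DATG. Against WT it was lower in DATG by 0.28 ± 0.09 (SE, adjusted p = 0.0395) and stood at 0.08 ± 0.09 in KO, which was not called. A region inside SEMA3B was 0.55 ± 0.10 higher in KO, and regions of EPHB3 and EPHB1 stood at −0.53 ± 0.12 and −0.35 ± 0.10. DESeq2 called 2 member regions, and the PLXNA1 call was lost without any 1 of 8 libraries (adjusted p = 0.0502 to 0.151).

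Under SMADi, WT cells gained accessibility around SEMA4D, EPHB2, ROBO3 and ROBO1 and lost it around EPHA1, NTN4 and EFNA1. By day 5, 27 of 66 members were higher and 9 lower than on day 1, or 40.9% and 13.6%, beside 21.1% and 18.5% of all 17962 genes (39.6% either way). The median change was 0.06, beside 0.00 for all genes. At single regions the split was closer to the background, with 25.2% higher and 13.5% lower of the members, beside 23.9% and 17.1% of all regions (40.9% either way). Ligands passed in 15 cases upward and 5 downward of 35, and receptors in 12 upward and 4 downward of 31. Day 4 against day 1, added after the data were seen, gave 23 higher and 7 lower beside 30% of all genes called. That share is not split by direction here, so no skew of the members is read from these counts.

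SEMA4D, the semaphorin read by plexin-B1, had 28.7 and 27.0 CPM on day 1, 54.3 and 53.1 on day 4 and 52.7 and 48.8 on day 5 in WT. Both later days lay above day 1, and the change to day 5 was 0.86 ± 0.10 (SE, adjusted p = 3.43e-07). SLIT1 had 113 and 103 CPM on day 1, 139 and 143 on day 4 and 157 and 167 on day 5, a rise of 0.59 ± 0.07 (SE, adjusted p = 4.10e-07). SEMA3D rose by 0.57 ± 0.17 (SE, adjusted p = 0.0108), a call lost without WT day 1 replicate a, WT day 1 replicate b or WT day 5 replicate a (adjusted p = 0.0593 to 0.0743). Among ligands that fell, NTN4, a netrin that binds laminin in basement membranes, had 78.1 and 70.5 CPM on day 1, 55.3 and 50.2 on day 4 and 45.1 and 50.9 on day 5. Its change was −0.62 ± 0.10 (SE, adjusted p = 1.36e-05). EFNA1 fell by 0.57 ± 0.11 (SE, adjusted p = 0.000131), SEMA4A by 0.50 ± 0.09 and SEMA4G by 0.47 ± 0.14. The SEMA4G call was lost without WT day 5 replicate b (adjusted p = 0.132).

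EPHB2 led the receptors, with 67.6 and 65.9 CPM on day 1, 108 and 106 on day 4 and 118 and 122 on day 5, and a rise of 0.85 ± 0.07 (SE, adjusted p = 4.08e-10). ROBO3 had 103 and 113 CPM on day 1, 182 and 163 on day 4 and 172 and 200.2 on day 5 and rose by 0.79 ± 0.07 (SE, adjusted p = 1.71e-09). ROBO1, a SLIT receptor, rose by 0.76 ± 0.16 (SE, adjusted p = 0.000401) from a low level, with 21.7 and 23.5 CPM on day 5 against 11.8 and 15.3 on day 1. EPHA4, a receptor for both ephrin classes, rose by 0.46 ± 0.07 (SE, adjusted p = 4.22e-06). PLXNA3, a semaphorin receptor with 17.6 and 16.7 CPM on day 5 against 9.93 and 11.3 on day 1, rose by 0.69 ± 0.22 (SE, adjusted p = 0.013), a call lost without WT day 1 replicate a (adjusted p = 0.114). EPHA1 had the strongest fall of a sum, with 46.2 and 41.2 CPM on day 1, 31.4 and 28.8 on day 4 and 23.9 and 24.0 on day 5 and a change of −0.87 ± 0.13 (SE, adjusted p = 6.56e-06). PLXND1, the receptor of SEMA3E, fell by 0.52 ± 0.06 (SE, adjusted p = 2.13e-07), with 121 and 116 CPM on day 5 against 170.3 and 167 on day 1. PLXNB1, the receptor of SEMA4D, fell by 0.28 ± 0.09 (SE, adjusted p = 0.0134), a call lost without WT day 1 replicate a or WT day 5 replicate a (adjusted p = 0.0692 to 0.129), while SEMA4D rose. Within 1 kb of gene ends 18 members were called, and SLIT1 and EPHA4 no longer had a positive change.

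The single regions with the strongest rises had few counts on day 1. A region inside PLXNA2, at chromosome 1, 208198361 to 208198561 and 45823 bp from a gene end, had 0.36 and 0.325 CPM on day 1, 7.64 and 6.23 on day 4 and 16.5 and 12.2 on day 5 in WT. Its change to day 5 was 5.32 ± 0.32 (SE, adjusted p = 3.45e-17). A region inside SEMA3G, 675 bp from a gene end at chromosome 3, 52433710 to 52433910, had 10.1 and 12.4 CPM on day 5 against 0.42 and 0.26 on day 1, a change of 5.03 ± 0.32 (SE, adjusted p = 1.32e-16). A region 11655 bp outside EFNA5 changed by 4.61 ± 0.39 (SE, adjusted p = 6.13e-13). On day 4 the SEMA3G region had 16.6 CPM in KO, 15.0 and 13.5 in DATG and 5.63 and 6.1 in WT, so the WT libraries were the lowest. Falling regions lay beside PLXND1 (−1.97 ± 0.27), inside PLXNC1 (−1.92 ± 0.26) and beside SEMA6B (−1.66 ± 0.24).

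**Figure D4:**
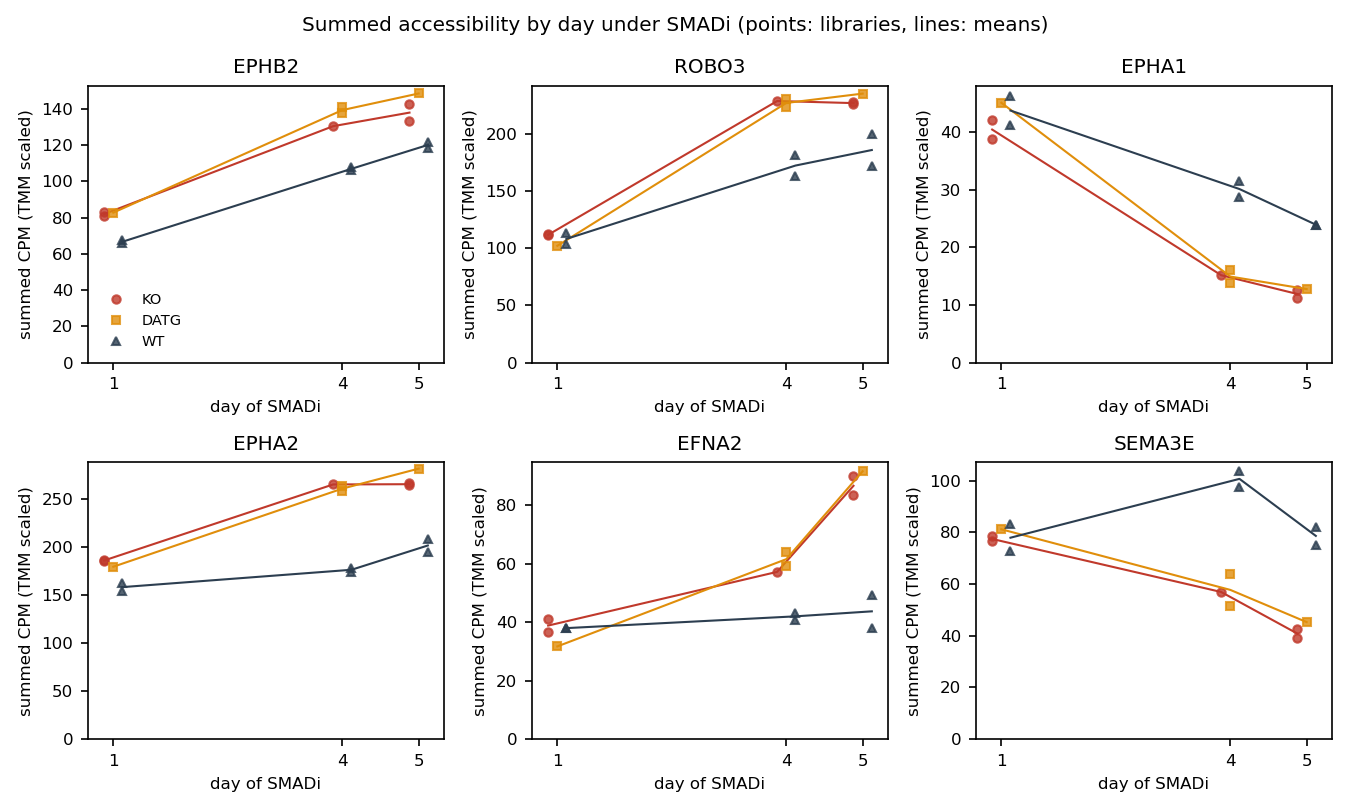
Summed CPM by day of SMADi for 6 members, with points for libraries and lines for means, KO in red circles, DATG in orange squares and WT in dark triangles. On days 4 and 5 the mutant libraries lie above WT for EPHB2, ROBO3, EPHA2 and EFNA2 and below WT for EPHA1 and SEMA3E, while on day 1 the lines lie close together for ROBO3, EPHA1, EFNA2 and SEMA3E.

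Under SMADi both mutant lines had more accessibility than WT around EFNA2, EPHA2, EPHB2, UNC5C and SEMA7A and less around EPHA1 and SEMA3E. Averaged over days 1, 4 and 5, 18 members were higher and 9 lower in KO than in WT, 40.9% beside 38.6% of all genes. In DATG 16 were higher and 8 lower, 36.4% beside 28.8% of all genes. The KO share is near the background, and the higher calls were 27.3% of members in KO beside 17.9% of all genes and 24.2% in DATG beside 12.5%. At single regions in KO 187 were higher and 114 lower, 23% and 14% beside 17.9% and 21.6% of all regions (39.5% either way). In DATG 126 were higher and 95 lower beside 28.5% called of all (11.1% higher and 17.4% lower), but with total-count scaling the DATG split was 87 higher and 109 lower. Without the doubted KO day 1 library, 23 genes and 259 regions were called for KO.

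Among the receptors, EPHA2 had 186 and 185 CPM in KO, 179 in DATG and 154 and 162 in WT on day 1. On day 4 these were 265 in KO, 258 and 263 in DATG and 174 and 178 in WT, and on day 5 266 and 264 in KO, 281 in DATG and 194 and 208 in WT. No mutant library overlapped the WT libraries of its day, and the change was 0.40 ± 0.03 (SE, adjusted p = 8.16e-10) in KO and 0.41 ± 0.04 (SE, adjusted p = 3.27e-09) in DATG. With regions within 1 kb alone, scaled anew on their counts, it stood at 0.02 in KO (adjusted p = 0.898) and 0.07 in DATG (adjusted p = 0.614). With the scaling over all regions, the EPHA2 promoter region stood at 0.17 ± 0.08 in KO and 0.18 ± 0.09 in DATG, neither called. Of 25 EPHA2 regions, 15 were higher in KO and 0 lower. The strongest, 18864 bp outside the gene at chromosome 1, 16174933 to 16175133, had 29.1 and 29.4 CPM in KO and 27.6 in DATG against 8.67 and 9.07 in WT on day 5 and changed by 1.56 ± 0.14 (SE, adjusted p = 1.85e-11) in KO. EPHB2 changed by 0.26 ± 0.04 in KO and 0.33 ± 0.04 in DATG, with 134 and 143 CPM in KO and 149 in DATG against 118 and 122 in WT on day 5. UNC5C changed by 0.34 ± 0.05 in KO and 0.27 ± 0.05 in DATG, and ROBO3 by 0.24 ± 0.04 and 0.21 ± 0.05. EPHA1 was lower in both lines. On day 5 it had 12.6 and 11.2 CPM in KO and 12.8 in DATG against 23.9 and 24.0 in WT, and it changed by −0.71 ± 0.08 (SE, adjusted p = 3e-07) in KO and −0.63 ± 0.09 (SE, adjusted p = 4.65e-06) in DATG. PLXNB1 was lower by 0.26 ± 0.06 in KO and 0.17 ± 0.06 in DATG, where DESeq2 did not call it and it was lost without any 1 of 5 libraries (adjusted p = 0.0542 to 0.0973). PLXNA4, lower by 0.17 ± 0.06 in KO, lost its call without the doubted library, WT day 1 replicate b or WT day 4 replicate b (adjusted p = 0.0515 to 0.0811). PLXNA3 was higher in KO by 0.39 ± 0.12, lost without any 1 of 4 libraries (adjusted p = 0.0535 to 0.0679).

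Among ligands, EFNA2, an ephrin-A, had 41.0 and 36.7 CPM in KO, 31.7 in DATG and 38.1 and 37.9 in WT on day 1. By day 5 it had 83.4 and 90.0 in KO, 91.7 in DATG and 38.1 and 49.3 in WT. On day 1 KO and WT overlapped and DATG was lowest, and on day 5 both mutant lines lay above WT. Its change over the days was 0.48 ± 0.06 (SE, adjusted p = 2.38e-06) in KO and 0.44 ± 0.07 (SE, adjusted p = 3.18e-05) in DATG. A region 9432 bp outside EFNA2, at chromosome 19, 1310863 to 1311063, had 19.5 and 20.5 CPM in KO and 18.8 in DATG against 1.32 and 2.45 in WT on day 5. It changed by 1.58 ± 0.38 in KO and 1.61 ± 0.57 in DATG, and the calls were lost without KO day 1 replicate a (adjusted p = 0.225) and without WT day 1 replicate a (adjusted p = 0.0545). Without KO day 1 replicate a, the doubted library alone stood for KO day 1. SEMA3E, which here lay below WT in both lines on days 4 and 5, had 56.9 CPM in KO, 63.9 and 51.5 in DATG and 104 and 97.6 in WT on day 4, and 42.6 and 39.0 in KO, 45.2 in DATG and 75.1 and 82.1 in WT on day 5. It changed by −0.60 ± 0.06 (SE, adjusted p = 3.29e-08) in KO and −0.52 ± 0.06 (SE, adjusted p = 1.07e-06) in DATG. Its region 35894 bp outside the gene stood at 7.01 and 6.39 CPM in KO and 7.14 in DATG against 25.0 and 19.6 in WT on day 5. SEMA7A was higher by 0.30 ± 0.06 in KO and 0.29 ± 0.06 in DATG, and SLIT3 by 0.29 ± 0.05 in KO and 0.22 ± 0.06 in DATG. NTN4 was lower by 0.24 ± 0.06 in KO and 0.22 ± 0.06 in DATG. SEMA3A, the growth cone collapsing semaphorin, stood at −0.35 ± 0.12 (SE, adjusted p = 0.0191) in KO and −0.36 ± 0.12 (SE, adjusted p = 0.029) in DATG, and its KO call was lost without the doubted library, WT day 4 replicate b or KO day 5 replicate b (adjusted p = 0.0593 to 0.0629). The DATG call was lost with DESeq2 and without any 1 of 3 libraries (adjusted p = 0.0696 to 0.0981). SEMA6D was lower by 0.25 ± 0.06 in KO and by 0.17 ± 0.07 in DATG, and the DATG call was lost with DESeq2, with the replicate block (adjusted p = 0.0939) and without any 1 of 9 libraries, the doubted one among them (adjusted p = 0.0523 to 0.216). With regions within 1 kb alone the SEMA6D change turned to 0.126 in KO and 0.121 in DATG, neither called.

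Some of the strongest differences of the mutant lines from WT lay in single regions. A region 23542 bp outside SEMA4B, at chromosome 15, 90161178 to 90161378, had 9.02 and 8.12 CPM in KO, 12.0 in DATG and 6.07 and 4.35 in WT on day 1. On day 5 it had 0.859 and 0.255 CPM in KO, 1.21 in DATG and 6.03 and 4.24 in WT. The mutant lines were the highest on day 1 and the lowest on day 5, and the change over the days was −1.98 ± 0.23 (SE, adjusted p = 5.38e-09) in KO and −1.27 ± 0.21 (SE, adjusted p = 7.45e-06) in DATG, where the SEMA4B sum stood at −0.11 ± 0.04 and −0.06 ± 0.04. A region inside SEMA3C, 21781 bp from a gene end, had 4.65 and 3.96 CPM in KO and 3.62 in DATG against 14.1 and 15.8 in WT on day 5 and changed by −1.25 ± 0.12 in KO and −1.22 ± 0.13 in DATG. It overlaps the SEMA3C region of the BMP4 table that was higher in both lines there. Inside SEMA5B, a region at chromosome 3, 122947119 to 122947319 had 11.6 and 11.9 CPM in KO and 13.1 in DATG against 4.56 and 2.38 in WT on day 5 and changed by 1.82 ± 0.31 in KO and 1.85 ± 0.44 in DATG. A region 45248 bp outside EPHA4 changed by −1.20 ± 0.16 in KO. Between KO and DATG no member gene and no member region was called by edgeR under SMADi, beside 0.117% of all genes and 0.0598% of all regions. At an unadjusted p under 0.05 there were 2 genes and 35 regions, and DESeq2 called 0 genes and 0 regions. The KO side of this comparison includes the doubted KO day 1 library, which lay close to DATG day 1.

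The treatments were counted in separate tables, so their calls are set side by side and the difference was not tested. In WT, 10 members rose from day 1 to day 5 under both treatments, 33.3% of the BMP4 calls and 27.8% of the SMADi calls, among them EFNB1, EFNB2, EPHA2, EPHB2, SEMA3C and SEMA7A. That is 15.2% of the members, beside 9.18% of the 17555 genes tested in both tables. EPHA1 and SEMA4G fell under both, 3.03% of the members beside 8.13% of all genes. Another 5 fell under BMP4 and rose under SMADi, namely PLXNC1, SEMA3D, SEMA5B, SLIT1 and UNC5A (7.58% beside 2.38% of all genes). PLXND1 did the reverse (1.52% beside 1.85%). For KO against WT, 8 members were lower under BMP4 and higher under SMADi, 28.6% of the BMP4 calls and 29.6% of the SMADi calls, or 12.1% of the members beside 2.8% of all genes. They were EFNB2, EPHA2, EPHB2, NTN1, SEMA3F, SEMA7A, UNC5B and UNC5C. Another 4 (EPHA10, ROBO3, SEMA5B and UNC5A) were higher under both, 6.06% of the members beside 1.56% of all genes. SEMA6D was lower under both (1.52% beside 2.21%), and NTN4 and SEMA4B were higher under BMP4 and lower under SMADi (3.03% beside 4.28%). For DATG the 5 that were lower under BMP4 and higher under SMADi were EFNB2, EPHA2, PLXND1, UNC5B and UNC5C, 7.58% of the members beside 1.17% of all genes. In DATG 3 members (EPHA10, ROBO3 and SEMA5B) were higher under both, 4.55% beside 0.632%. None was lower under both or higher under BMP4 and lower under SMADi, beside 0.78% and 1.88% of all genes. The shares of members and of all genes were not tested against each other.

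In the 6 comparisons of WT over time and of KO and DATG against WT under each treatment, member regions 1 to 50 kb from a gene end were called more often than those within 1 kb. Under BMP4, 9.5% of 200 member regions within 1 kb of a gene end were called in KO, beside 9.31% of all such regions. Between 1 and 50 kb it was 30.6% of 578 member regions beside 23.4% of all. In DATG the shares were 4.5% beside 3.44% near gene ends and 13.3% beside 10.1% farther out. For WT under SMADi they were 22.4% beside 24.6% near and 44% beside 42.5% farther. The difference between members and all regions farther out was not tested. Member regions in a RefSeq promoter window did not follow that order throughout: for WT under BMP4 41.4% of 70 were called beside 34.8% of those at 1 to 50 kb, in KO under SMADi 41.8% of 67 beside 38.8%, and in KO under BMP4 7.1% beside 30.6%. The share called over all promoter regions was not counted, so these shares are not read as particular to the members. In KO under SMADi the calls near gene ends were mostly upward, at 29.1% higher and 2.55% lower, as were those of all near regions at 27.2% and 6.56%.

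**Figure D5:**
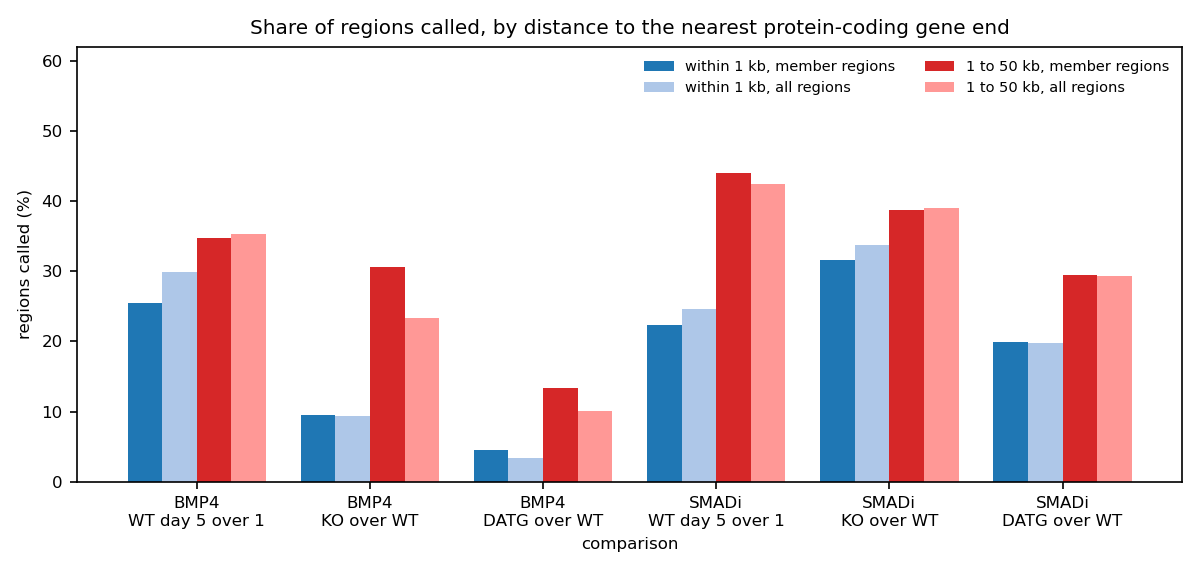
Percentage of regions with an adjusted p under 0.05 in 6 comparisons, for regions within 1 kb of a gene end (blue) and between 1 and 50 kb (red), with member regions in the dark bar and all regions in the light bar. In every comparison drawn, the farther member regions were called more often than the near ones, as in KO under BMP4 with 30.6% against 9.5%.

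Several promoter regions were called as well. Under BMP4 the EFNB2 promoter region rose in WT by 0.48 ± 0.13 from day 1 to day 5, that of EPHA2 by 0.43 ± 0.14, that of PLXNA2 by 0.51 ± 0.17 and that of PLXNA1 by 0.61 ± 0.19. The SLIT1 promoter region was higher in KO than in WT under BMP4 by 0.72 ± 0.16 (SE, adjusted p = 0.000175), and higher in KO than in DATG by 0.56 ± 0.16. In DATG against WT it stood at 0.17 ± 0.17, which was not called. Its coverage was low, at a mean log2 CPM of 1.49 beside 3.40 for the PLXNA1 promoter region. Under SMADi the EFNB2 promoter region was higher by 0.43 ± 0.09 in KO and 0.34 ± 0.10 in DATG. The PLXNA1 region was higher by 0.52 ± 0.11 in KO and stood at 0.16 ± 0.12 in DATG, not called. The PLXNA2 region was higher by 0.37 ± 0.12 in DATG and stood at 0.27 ± 0.12 in KO, not called. The EPHA2 promoter region rose in WT under SMADi by 0.62 ± 0.14, and 2 promoter regions of EPHB2, whose window is not shown, were higher in KO there by 0.83 ± 0.17 and 0.70 ± 0.20. In DATG these 2 EPHB2 regions stood at 0.45 ± 0.18 and 0.47 ± 0.22, not called. Between KO and DATG none of these PLXNA1, PLXNA2 and EPHB2 regions was called under SMADi. Motif letters were counted in all windows on both strands. The AP-1 motif TGANTCA was in 1.1% of member windows and 6.2% of all windows, the GATA motif AGATAA in 9.0% and 7.9%, the SOX motif ACAAAG in 11.2% and 13.6% and the E-box CAGCTG in 19.1% and 18.0%. Among the 5 windows shown, PLXNA2 held the SOX letters, EPHA2 held the TEAD letters GGAATG, and PLXNA1, EFNB2 and SLIT1 held none of the 7 motifs searched.

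Other genes of axon guidance were counted from a list of 68 co-receptors, adhesion molecules and intracellular mediators, 67 of them tested. In WT under BMP4 14 were higher and 19 lower on day 5 than on day 1, near the 24.8% and 22.5% of all genes, and under SMADi 28 were higher and 11 lower beside 21.1% and 18.5%. KO against WT gave 11 higher and 10 lower under BMP4 (all genes 11.4% and 11.2%) and 20 higher and 12 lower under SMADi (17.9% and 20.7%). DATG against WT gave 7 higher and 2 lower under BMP4 (5.35% and 5.05%) and 20 higher and 11 lower under SMADi (12.5% and 16.3%). The test of the difference in course under BMP4 called 4 upward and 0 downward in KO and none in DATG. NRP1, the co-receptor of class 3 semaphorins, was lower under BMP4 by 0.25 ± 0.04 in KO and 0.16 ± 0.04 in DATG. DPYSL5, a cytoplasmic mediator of semaphorin signals, was higher by 0.29 ± 0.03 in KO and 0.23 ± 0.03 in DATG, and PAK3, a kinase downstream of guidance receptors, by 0.41 ± 0.07 and 0.37 ± 0.07. Under SMADi CXCR4, a chemokine receptor that guides migrating cells, was higher by 0.42 ± 0.06 in KO and 0.40 ± 0.07 in DATG.

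Markers of several lineages were called in the same comparisons, where 22.6% of all genes were called in KO and 10.4% in DATG under BMP4, and 38.6% in KO and 28.8% in DATG under SMADi. Under BMP4 7 of 10 mesoderm markers were lower and 0 higher in KO, and in DATG 7 lower and 0 higher, with summed levels on day 5 of 1149 and 1202 CPM in KO, 1229 and 1245 in DATG and 1316 and 1445 in WT. Of 10 neuroectoderm markers 7 were higher and 1 lower in KO under BMP4, and 6 higher and 0 lower in DATG, with day 5 sums of 2058 and 2102 CPM in KO, 1849.8 and 1904 in DATG and 1649.8 and 1682 in WT. Under SMADi 6 of them were higher and 1 lower in KO, and 5 higher and 1 lower in DATG, with day 5 sums of 2396 and 2308 CPM in KO, 2371 in DATG and 1954 and 2084 in WT. Of 10 pluripotency markers 7 were higher and 0 lower in KO under BMP4, and 5 higher and 0 lower in DATG. Under SMADi 1 was higher and 6 lower in KO, and 0 higher and 6 lower in DATG. TFAP2A and HAND1 each stand in 2 of the lists. Of 8 endothelial and blood markers 2 were higher and 1 lower in KO under BMP4, of 7 neural crest markers 2 were higher and 0 lower, and of 8 amnion and trophoblast markers 1 was higher and 3 lower. Under SMADi these lists and the mesoderm list had calls in both directions in KO, with 2 mesoderm markers higher and 2 lower, 1 endothelial and blood marker higher and 3 lower, 1 neural crest marker higher and 1 lower, and 2 amnion and trophoblast markers higher and 2 lower. All markers had linked counts, so none was at 0. The part of such lineage differences in the members' changes was not tested.

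The genes whose course over the groups ran most like that of 3 members were found by Pearson correlation of group means of log2 CPM, as a description over points that share libraries. Over the 15 BMP4 groups, EFNB2 ran closest to NINL, CYP27A1, SLC7A2, KRT19 and OR6V1, with r of 0.96 to 0.95. SEMA3D ran closest to NUDT12, MAP2K6, CHSY3, NXPH1 and LOC107984142, at 0.92 to 0.88. Over the 9 SMADi groups, EPHA1 ran closest to SLC1A3, FAM228B, DPYSL2, PLAAT3 and PROM2, with r of 0.998 to 0.996.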

How the data were processed

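ATAC-seq counts of 51 libraries were used. The authors deposited 3 tables of raw counts per 201 bp region, one for day 0, one for BMP4 and one for SMADi, which hold different regions, so each was tested alone. MACS2 and the GRCh38 build are named in the submitters' processing notes, and per the labels' protocols the libraries were PCR-amplified. For the aligner, peak settings, duplicates and transposase shift, settings were not given in the sources used here. Amplified reads carry no molecular identifiers and so are not independent molecules.

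Regions were linked to the nearest protein-coding gene end within 50 kb and summed per gene. Counts were fitted in R 4.3.3 with edgeR 4.0.16 (limma 3.58.1; trimmed mean of M values, filterByExpr, robust quasi-likelihood test, 1 mean per genotype and day), and p-values were adjusted by Benjamini-Hochberg over each whole table. KO and DATG were compared with WT as the mean of the within-day differences. Filtering left 100582 of 100584, 142083 of 142087 and 162313 of 162317 regions. The biological coefficient of variation was 0.0426, 0.0376 and 0.0584 for gene sums and 0.0762, 0.0708 and 0.12 for regions (day 0, BMP4, SMADi). The scripts were tested on simulated data.

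The members and lists were chosen with earlier results of these data known. Genes named are the 8 strongest called sums per direction in a comparison and regions the 3 strongest at or above the median coverage, 1 per gene, with the exceptions stated. Alternatives were median-ratio size factors, total counts, no filter, DESeq2 1.42.0, the replicate letter as a block, regions within 1 kb, and each library left out, with the spread trend taken from every 4th gene or every 10th region. Days 4 against 1 under SMADi and days 5 against 1 within KO and DATG were added after the data were seen. The genes most like SEMA4D in course are not reported here. A counting interval covers counting error only and none is printed.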

Additional observations from a re-analysis of the deposited data

Results flagged for a closer look

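The day 5 against day 1 change under BMP4 differed between KO and WT in a direct test for 7 member genes. On the log2 scale, KO minus WT, the difference was −0.42 for EFNB2, −0.39 for EPHB4, −0.3 for PLXNA2, −0.51 for SEMA3F and −0.58 for SEMA7A, so these gained less or lost in KO. It was 0.58 for EPHA8 and 0.36 for SLIT1.

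Members also stood on opposite sides of WT under the 2 treatments, with every KO library below the WT mean of its day under BMP4 and above it under SMADi. The log2 change of KO against WT was −0.14 under BMP4 and 0.4 under SMADi for EPHA2, and −0.12 under BMP4 and 0.26 under SMADi for EPHB2. For DATG against WT the EPHA2 values were −0.1 under BMP4 and 0.41 under SMADi, again with every library on the same side. With regions within 1 kb alone the EPHA2 value under BMP4 turned to 0.0287 in DATG. The SMADi values then stood at 0.02 in KO and 0.07 in DATG, none of them called. That fit was scaled on the near counts alone. With the scaling over all regions, the EPHA2 promoter region stood at 0.17 in KO and 0.18 in DATG under SMADi, neither called. The treatments were counted in separate tables, and these differences were not tested.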

How the results depend on the processing

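Of the 102 named gene results, 102 stayed on their side of the threshold and kept their direction with median-ratio size factors and without the filter, 101 with total counts and 86 with DESeq2. Of the 48 named regions these counts were 48, 48, 46 and 35. DESeq2 called 0 member regions for DATG at day 0, 9 genes for DATG and 4 for the KO minus WT course under BMP4. It called 159 regions for WT day 5 against day 1 under BMP4, 113 for KO, 28 for DATG, 2 for KO against DATG, and 0 for either difference in course. With total counts the day 0 DATG region was lost, leaving 0. Total counts moved the median of all regions for WT day 5 against day 1 to −0.17 with BMP4 and to −0.10 with SMADi.

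With regions within 1 kb, fewer regions per gene were tested, and the scaling was computed anew from their counts alone. Changes in this fit are thus relative to the near regions, not to all regions. Counts of members in this section are given without the share of all genes or regions in the same fit. Under BMP4, 18 members were called for WT day 5 against day 1. For KO there were 10, for DATG 1 and for the KO minus WT course 1. Under SMADi there were 18 for WT, 12 for KO and 9 for DATG. Of 95 named gene results that could be refitted this way, 31 stayed, 52 lost the call and 12 reversed. The sign reversed for WT under BMP4 in EPHA8 (0.0168), EPHB1 (0.0478) and SLIT3 (0.062), for KO in PLXNA2 (0.0018) and for DATG in EPHA8 (−0.0388), PLXNA2 (0.0094) and EPHA2 (0.0287). It also reversed for PLXNA2 in the KO minus WT course (0.0379), and under SMADi for WT in SLIT1 (−0.214) and EPHA4 (−0.0378) and for SEMA6D in KO (0.126) and DATG (0.121). None of these reversed values was called.

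With 1 library left out, the calls were 0 to 2 regions for DATG at day 0. Under BMP4 they were 19 to 30 genes and 151 to 256 regions for WT, both lowest without WT day 5 replicate b, 26 to 30 genes for KO, 10 to 16 genes and 57 to 91 regions for DATG, and 0 to 2 genes and 6 to 16 regions for KO against DATG. The KO minus WT course had 3 to 10 genes and 3 to 22 regions, and that of DATG 0 to 1 genes and 0 to 4 regions. Under SMADi they were 26 to 37 genes for WT, 21 to 29 for KO and 18 to 27 for DATG.

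Deviations between the replicate letters correlated weakly across groups: over 105 pairs of BMP4 groups the correlation ran from −0.135 to 0.19, with 12 over 0.1. Over 15 pairs of SMADi groups it ran from −0.202 to 0.204, with 2 over 0.1. Whether a letter marks a shared batch or culture was not tested. With the letter as a replicate block the day 0 DATG region was lost, leaving 0 (adjusted p = 0.0883), and so was SEMA6D in DATG under SMADi (adjusted p = 0.0939), and no other named call changed. Regions near 1 CPM rest on few counts per library.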
